A study of Mus musculus with 16 samples.

Results

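The transcripts described here encode 10 proteins that release, store, buffer and retrieve calcium in skeletal muscle fibres: Cacna1s, Ryr1, Trdn, Casq1, Casq2, Atp2a1, Atp2a2, Sln, Pln and Pvalb. They were taken by gene symbol from the deposited FPKM table (fragments per kilobase, corrected for library size), which held 23970 symbols, and all 10 were found and passed the filter on low values (averaging 0.5 FPKM or more across all 16 libraries, as 11256 genes did). The symbols were not chosen by a threshold on any measured value. Quadriceps was taken from 16 male C57BL/6NTac mice of 16 weeks, 4 per group, which had been fed a control diet (CON, 10% of kcal from fat) or a high-fat diet (HFD, 60% of kcal from fat) for 10 weeks. The pre-exercise groups (CON-pre and HFD-pre) were sampled at rest, and the post-exercise groups (CON-post and HFD-post) 3 h after a single maximal treadmill run. All mice were wild type, and muscle was collected under isoflurane anaesthesia. The runners were fasted for 3 h before the run and had water but no food from the run until sampling. Pre-exercise mice were different mice, acclimatised to the treadmill in the same way and described as having the same fasting period. Whether that period covered the hours after the run is not stated, so time without food may differ between the pre-exercise and post-exercise groups. Each library came from the muscle of 1 mouse.

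In a muscle fibre, the voltage sensor in the transverse tubule couples mechanically to the ryanodine receptor in the adjoining sarcoplasmic reticulum, and calcium held in the lumen by calsequestrin then enters the cytosol and triggers contraction. Relaxation follows when SERCA pumps return calcium to the lumen, aided in fast fibres by the soluble buffer parvalbumin. Fast and slow fibres use different members of these families: SERCA1, calsequestrin 1 and parvalbumin are known for fast fibres, whereas SERCA2 and calsequestrin 2 are the slow-fibre and cardiac forms. Whole quadriceps was sequenced, so a lower share of fibres of a type and less RNA per fibre cannot be told apart in any value given here.

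The labelled tissue was checked against its defining transcripts. Myh4, the myosin heavy chain of the fastest mouse fibres, lay between 6821 and 9499 FPKM, and Myh7, the slow myosin, between 11.2 and 58.1 FPKM. Of the transcripts restricted to heart, Nppa was listed at 0 in 16 libraries, Myl7 in 14 and Tnni3 in 9, while Myh6 lay between 0.643 and 3.41 FPKM. The 7 cardiac-restricted transcripts together reached 2.06 to 7.86 FPKM. With Myh4 far above Myh7, the values were those of a predominantly fast skeletal muscle. Total FPKM ranged from 283575 to 329282 and the relative depth, read from genes of at most 0.05 FPKM, from 0.707 to 1.12 times that of the CON-pre replicate 1 library. The 10 calcium-handling transcripts together made up 4.52% to 5.33% of all FPKM.

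The 250 bases before the start of Casq1 and Casq2 are shown because these are the genes of calsequestrin 1 and calsequestrin 2, and Casq1 is the member called after exercise. The sequences were read from RefSeq (GRCm38.p6), which held a promoter window for 7 of the 10 genes. Capitals mark E-boxes (CANNTG, the core bound by MyoD-family factors) and, in Casq2, a match to the MEF2 site, searched on both strands. The Casq1 window is chr1:172219896-172220145 on the minus strand, and the Casq2 window is chr3:102086165-102086414 on the plus strand.
Casq1: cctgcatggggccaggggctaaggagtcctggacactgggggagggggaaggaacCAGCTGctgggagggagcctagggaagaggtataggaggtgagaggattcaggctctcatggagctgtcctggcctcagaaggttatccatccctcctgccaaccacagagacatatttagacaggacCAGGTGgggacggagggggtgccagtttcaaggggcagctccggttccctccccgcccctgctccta
Casq2: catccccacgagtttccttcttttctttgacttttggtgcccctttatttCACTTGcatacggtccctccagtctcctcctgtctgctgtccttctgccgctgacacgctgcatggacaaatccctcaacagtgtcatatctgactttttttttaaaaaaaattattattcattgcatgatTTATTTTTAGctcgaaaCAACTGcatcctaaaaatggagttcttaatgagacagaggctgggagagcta
Each window held 2 E-boxes, which 66% of the 27025 RefSeq promoter windows of this length hold at least once. The MEF2 match lay 69 to 60 bases before the start of Casq2 and had no counterpart in the Casq1 window. A MEF2 match occurred in 3.01% of all windows, and Pvalb was the other member of the 7 that had 1. The CArG box, the site of serum response factor, was found in 1.4% of all windows and in 0 of the 7. These matches describe letters in a window and not binding.

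Levels, compared per transcript length in FPKM, spanned about 4 orders of magnitude. Atp2a1, which encodes the fast pump SERCA1, averaged 7102 FPKM over the 16 libraries and had the 9th highest mean of all symbols. Pvalb (parvalbumin) averaged 5731 FPKM and Casq1 (calsequestrin 1, the main luminal calcium store of fast fibres) 1253 FPKM. Atp2a1 exceeded Pvalb in 15 of 16 libraries, with a median ratio of 1.29, but their ranges overlapped. Trdn (triadin, which anchors calsequestrin to the release channel) averaged 255 FPKM and Ryr1 (the release channel) 235 FPKM, and these were not separated: Trdn was the higher in 10 of 16 libraries. Cacna1s, the voltage-sensing subunit of the dihydropyridine receptor, followed at 147 FPKM. The slow-fibre forms were far lower, with Atp2a2 (SERCA2) at 37.2 FPKM and Casq2 at 11 FPKM. The small inhibitory peptides of the pumps closed the order, with Sln (sarcolipin) at 3.34 FPKM and Pln (phospholamban) at 0.86 FPKM. Sln exceeded Pln in 16 of 16 libraries although their ranges overlapped. Every other pair of neighbours had ranges without overlap.

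**Figure D1:**
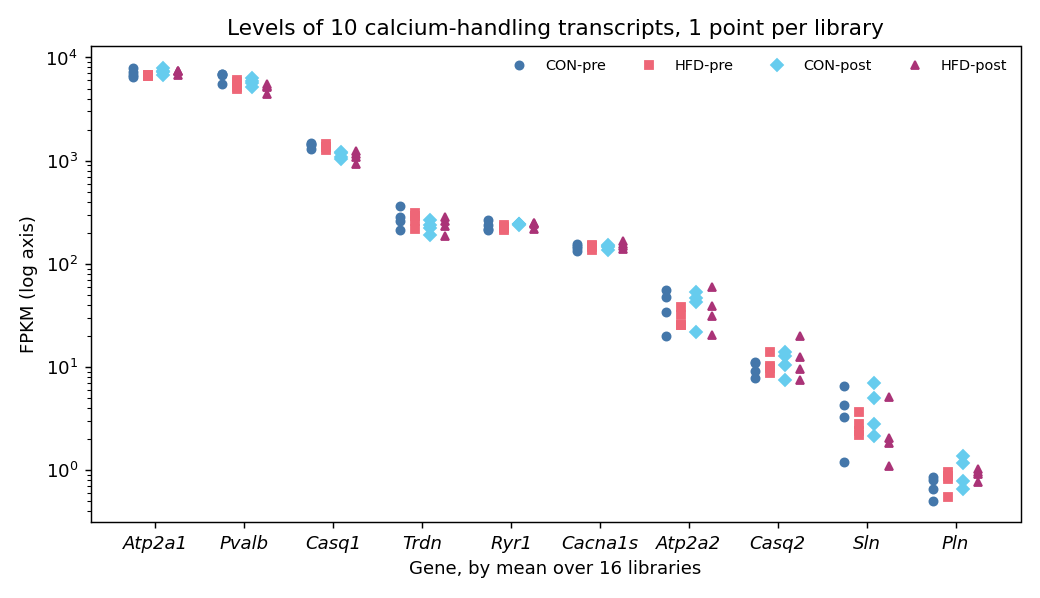
FPKM of the 10 calcium-handling transcripts on a log axis, with 1 point per library and 4 libraries per group; genes are ordered by their mean over the 16 libraries. Atp2a1 and Pvalb stand highest at means of 7102 and 5731 FPKM and Pln lowest at 0.86 FPKM.

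The members also differed in how much mice of 1 group varied. The residual SD on the log2 scale was 0.09 for Ryr1, Cacna1s and Atp2a1, which placed them at percentiles 4.5, 4.82 and 4.85 of the genes tested. It was 0.12 for Casq1 and 0.14 for Pvalb, against a median of 0.18 for all genes. Pln (0.23) and Trdn (0.25) were above that median. The 3 most variable were Casq2 at 0.39, Atp2a2 at 0.55 and Sln at 0.69, which stood at percentiles 93.5, 97.7 and 98.5. The design could thus resolve much smaller differences for the fast release and uptake machinery than for the slow-fibre forms and sarcolipin.

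The effect of the run was then compared across diets, the contrast in which each diet's post-exercise group is set against its own pre-exercise group and the differences are averaged. Of the 10 members, Casq1 fell and no other member was called in either direction by limma at a Benjamini-Hochberg adjusted p under 0.05. Of all genes tested, 3.86% were called in this contrast, and 0.915% were called and lower after exercise. The latter share was 2.44% under upper-quartile, 1.6% under median-of-ratios and 2.17% under quantile scaling, as the share of calls that were higher went from 76.3% to 48.8%, 63.1% and 54.2%. The median log2 fold change of the members was 0.05, beside 0.01 for all genes, with 6 members higher and 4 lower. At an unadjusted p under 0.05, 1 member passed, where 18.5% of all genes did.

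Casq1 stood at 1491, 1455, 1433 and 1288 FPKM in CON-pre and at 1361, 1448, 1363 and 1272 FPKM in HFD-pre. After the run it stood at 1090, 1211, 1174 and 1044 FPKM in CON-post and at 933, 1084, 1166 and 1235 FPKM in HFD-post. All 8 post-exercise libraries therefore lay below all 8 pre-exercise libraries, with the highest post-exercise value at 1235 and the lowest pre-exercise value at 1272 FPKM. Such a separation of 8 from 8 was seen in 0.764% of the genes tested and in no other member. The averaged log2 fold change was -0.32 (SE 0.06, 95% interval -0.44 to -0.19), a level 0.803 times that before exercise, with an adjusted p of 0.00546 by limma. The call held in every setting tried but 1: without the filter on low values, the adjusted p was 0.0759.

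Within each diet the estimate for Casq1 was of similar size but did not pass the threshold. In CON mice, the mean went from 1417 ± 89.1 to 1129 ± 76.3 FPKM (SD, n = 4), a log2 fold change of -0.33 (SE 0.08) with an adjusted p of 0.0739 by limma. In HFD mice, it went from 1361 ± 71.8 to 1105 ± 130 FPKM (SD, n = 4), a log2 fold change of -0.31 (SE 0.08) with an adjusted p of 0.139. The interaction of diet and exercise was 0.02 with a 95% interval of -0.23 to 0.27, so a difference between the diets of up to about that size could not be resolved. The adjusted p of the CON-post comparison ranged from 0.0254 to 0.382 over the alternatives. It passed the threshold without CON-pre replicate 4 (0.0455) and without HFD-post replicate 1 (0.0254), the library with the lowest Casq1.

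Markers of fibre type and of other cell types were set beside this result. The summed FPKM of 10 fast-fibre sarcomere transcripts ranged from 54015 to 70229 before and from 46533 to 61517 after exercise, and 1 of the 10, the myosin light chain Myl1, fell (log2 fold change -0.31, SE 0.06, adjusted p 0.00948 by limma). The other 9 were not called, among them Myh4 at -0.05, and 4 of the 10 were lower with an unadjusted p under 0.05. Summed slow-fibre transcripts ranged from 203 to 719 before and from 197 to 786 after exercise. All 8 had positive estimates, with a median log2 fold change of 0.17 beside 0.01 for all genes, and 0 were called. The type IIa myosin Myh2 had an estimate of 0.28 and was not called. With the slow-fibre score as a covariate, the log2 fold change of Casq1 was -0.30 (adjusted p 0.00216), and after quantile normalization it was -0.30 (0.00457). Of the lists for other cells, 1 of 6 smooth muscle, 1 of 5 Schwann cell and 1 of 6 endothelial transcripts tested rose after exercise. In the adipocyte, blood, macrophage, tendon and cardiac lists, 0 were called. Of the 8 adipocyte transcripts, 7 were higher and 1 lower, with a median log2 fold change of 0.27. An unadjusted p under 0.05 by limma was reached by 2. The 8 summed to 714 to 949 FPKM before and 638 to 1230 FPKM after exercise. The adipocyte score is the mean of the centred log2 values of all 8. With it as a covariate, the log2 fold change of Casq1 was -0.35 (adjusted p 0.00498 by limma). Summed smooth muscle transcripts ranged from 37.6 to 48.7 FPKM before and from 43.1 to 56.8 FPKM after exercise, Schwann cell transcripts from 28.6 to 38.3 and from 32.6 to 46.5 FPKM, and endothelial transcripts from 53.3 to 68.5 and from 59.1 to 81.1 FPKM. None of these 3 lists held a transcript listed at 0 in every library. The part of the fast-fibre, smooth muscle, Schwann cell and endothelial transcripts in the Casq1 difference was not tested.

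**Figure D2:**
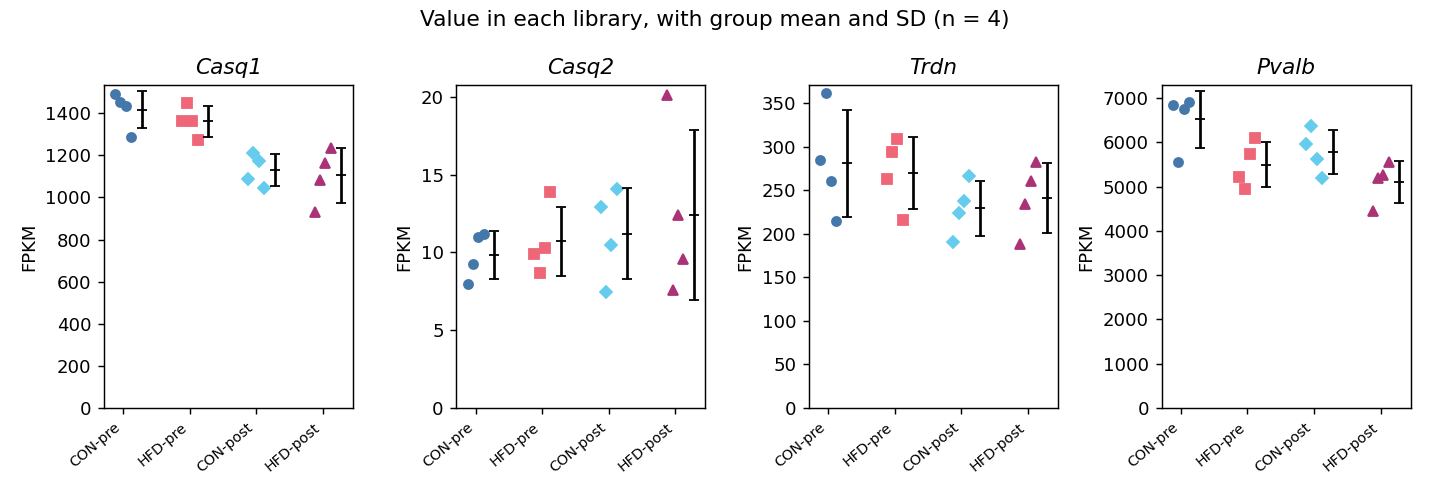
FPKM in each library (coloured points) of Casq1, Casq2, Trdn and Pvalb, with the mean and SD of each group of 4 in black and the vertical axes starting at 0. Casq1 lies at 1272 FPKM or above in all 8 pre-exercise libraries and at 1235 FPKM or below in all 8 post-exercise libraries, whereas the groups of the other 3 genes overlap.

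Calsequestrin 2, the slow and cardiac form, was not called. Casq2 stood at 7.93, 9.27, 11 and 11.2 FPKM in CON-pre and at 9.9, 8.68, 10.3 and 13.9 FPKM in HFD-pre. It stood at 12.9, 7.47, 10.5 and 14.1 FPKM in CON-post and at 20.1, 7.56, 12.4 and 9.56 FPKM in HFD-post. The groups overlapped throughout, and HFD-post replicate 1 was the highest library. The averaged log2 fold change after exercise was 0.15 (95% interval -0.22 to 0.51, adjusted p 0.705 by limma). The ratio of Casq2 to Casq1 within a library was 0.47 higher on the log2 scale after exercise (exact permutation p = 0.0706, adjusted p 0.904 over 24 ratio tests), and 0.30 higher without HFD-post replicate 1, ranging from 0.532% to 1.09% before and from 0.617% to 2.15% after.

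The release channel and voltage sensor had narrow intervals that included 0. Ryr1 stood at 237, 214, 220 and 264 FPKM in CON-pre and at 221, 226, 236 and 215 FPKM in HFD-pre. After exercise it stood at 241, 243, 243 and 239 FPKM in CON-post and at 218, 247, 244 and 250 FPKM in HFD-post. Within each diet the pre-exercise and post-exercise groups overlapped, and the averaged log2 fold change after exercise was 0.07 (95% interval -0.03 to 0.17, adjusted p 0.438 by limma). For Cacna1s it was 0.03 (-0.07 to 0.13, adjusted p 0.781), with values between 133 and 165 FPKM over the 16 libraries. The intervals leave room for a rise of at most 0.17 or a fall of at most 0.07 in these channel transcripts.

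Triadin was more variable. Trdn stood at 285, 362, 260 and 215 FPKM in CON-pre and at 263, 294, 309 and 216 FPKM in HFD-pre. It stood at 190, 224, 238 and 266 FPKM in CON-post and at 188, 234, 260 and 282 FPKM in HFD-post. The groups overlapped, and replicate 1 was the lowest library in both post-exercise groups. The averaged log2 fold change was -0.22 (95% interval -0.46 to 0.02, adjusted p 0.307 by limma), so Trdn was not called although its estimate lay on the same side as that of Casq1. Over the 16 libraries the values of Casq1 and Trdn were related with a Pearson r of 0.69, given as a description. Group means were not removed, so differences between groups enter it.

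Neither pump was called after exercise. Atp2a1 stood at 7198, 6482, 6709 and 7982 FPKM in CON-pre and at 7951, 7438, 7177 and 6773 FPKM in CON-post. In HFD mice it stood at 6772, 6763, 6654 and 6687 FPKM before and at 6830, 7376, 7477 and 7360 FPKM after exercise. The HFD groups did not overlap, HFD-pre being narrow (SD 57.6 FPKM), whereas the CON groups did. The averaged log2 fold change was 0.08 (95% interval -0.02 to 0.19, adjusted p 0.413 by limma). Groups without overlap were seen for 2 members in HFD-post against HFD-pre (Casq1 and Atp2a1) and for 1 in CON-post against CON-pre (Casq1), beside 6.81% and 5.82% of all genes. For Atp2a2 the averaged log2 fold change was 0.16 with a wide interval of -0.35 to 0.66.

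Of the pump inhibitors, Pln had an averaged log2 fold change of 0.22 after exercise (95% interval -0.02 to 0.46, adjusted p 0.33 by limma). It stood between 0.509 and 0.961 FPKM before and between 0.659 and 1.39 FPKM after the run. Sln had an averaged log2 fold change of -0.03 (-0.66 to 0.61). At such low levels the scale of log2(FPKM + 0.5) understates a change. Neither inhibitor was separated between groups, and Pvalb had a log2 fold change of -0.14 (-0.28 to 0.01, adjusted p 0.292).

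The single comparisons called no member. In CON-post against CON-pre, 0 members were called and 1 had an unadjusted p under 0.05 (Casq1), where 1.11% and 11.1% of all genes did. In HFD-post against HFD-pre, the counts were again 0 and 1 (Casq1), beside 0.542% and 11.7% of all genes. The interaction of diet and exercise called 0 members and 0% of all genes, and at an unadjusted p under 0.05 it held 0 members and 3.16% of all genes. Its largest member estimate was that of Sln, at -0.43 (95% interval -1.70 to 0.84). That value rested on single libraries: it was -0.04 without CON-pre replicate 1, -0.17 without CON-post replicate 1 and -0.18 without HFD-post replicate 4, and -0.72, -0.67 and -0.79 without CON-pre replicate 3, CON-post replicate 3 and HFD-post replicate 1. With an adipocyte score as a covariate it was -0.04.

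**Figure D3:**
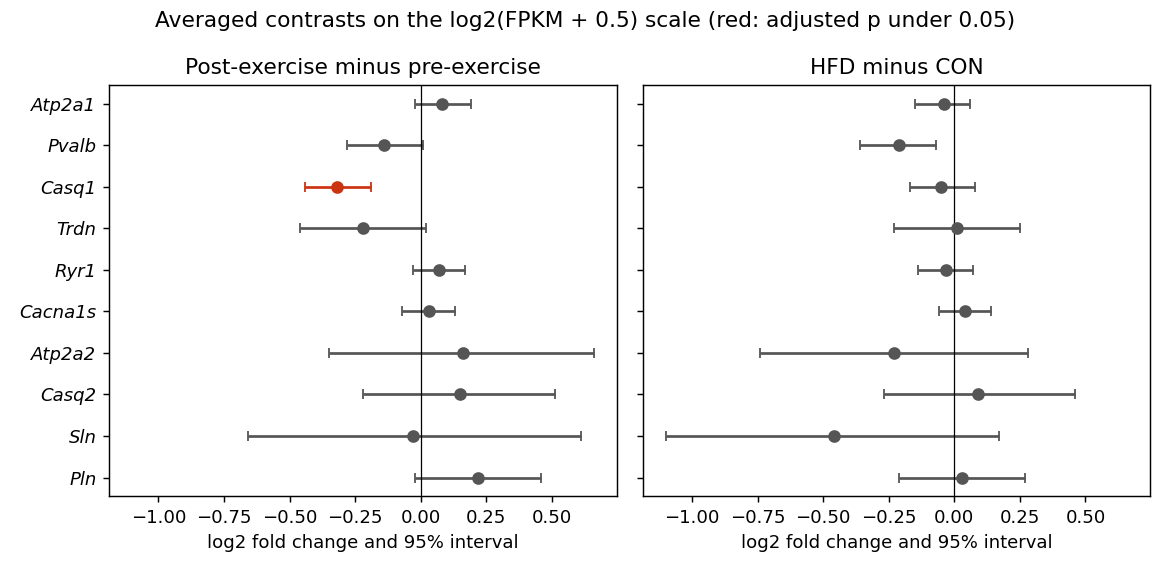
Log2 fold changes of the 10 transcripts with 95% intervals on the log2(FPKM + 0.5) scale, for post-exercise against pre-exercise (left) and HFD against CON (right), each averaged over the other factor. Casq1 after exercise (-0.32, red) is the only estimate with an adjusted p under 0.05, and the intervals of Atp2a2 and Sln are the widest.

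Diet was compared at rest and after exercise, and no member was called in either state or in their average. In HFD-pre against CON-pre, 0 members were called beside 0.346% of all genes, and 1 member (Pvalb) had an unadjusted p under 0.05 beside 8.25%. In HFD-post against CON-post, 0 members were called beside 0.151%, and 0 had an unadjusted p under 0.05 beside 6.29%. Averaged over exercise states, 0 were called beside 0.959%, and 1 (Pvalb) had an unadjusted p under 0.05 beside 10.4%. No member had groups without overlap in HFD-pre against CON-pre or in HFD-post against CON-post, where 5.62% and 3.16% of all genes did.

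Pvalb, the cytosolic buffer that speeds relaxation of fast fibres, had the lowest unadjusted p for diet. It stood at 6843, 5562, 6757 and 6919 FPKM in CON-pre and at 5213, 4951, 5730 and 6107 FPKM in HFD-pre. After exercise it stood at 5971, 6371, 5618 and 5194 FPKM in CON-post and at 4443, 5191, 5260 and 5563 FPKM in HFD-post. Within the CON-pre group, replicate 2 lay apart from the other 3 and inside the range of HFD-pre. The log2 fold change was -0.24 in HFD-pre (95% interval -0.45 to -0.04, adjusted p 0.467 by limma) and -0.21 averaged over exercise states (-0.36 to -0.07, adjusted p 0.204). Without CON-pre replicate 2, the averaged value was -0.25 (adjusted p 0.104). Upper-quartile scaling gave -0.21 and median-of-ratios scaling -0.19. Quantile normalization gave -0.03, but it says nothing about Pvalb, since it sets values by rank and Pvalb was the 11th highest symbol in 15 of 16 libraries. The summed fast-fibre sarcomere transcripts lay at 54863 to 70229 FPKM in CON and 46533 to 61899 FPKM in HFD libraries, with 0 of 10 called and 7 lower at an unadjusted p under 0.05, and their part in the Pvalb estimate was not tested.

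Of the 10 members, Sln and Atp2a2 had the largest averaged diet estimates and the least precise ones. Atp2a2 stood at 20.1, 34.5, 47.9 and 55.4 FPKM in CON-pre and at 25.8, 25.7, 38.6 and 31.7 FPKM in HFD-pre, where the HFD values lay inside the range of CON. Its log2 fold change was -0.29 (95% interval -1.01 to 0.43, adjusted p 0.903 by limma), and it turned to 0.09 (SE 0.10) when the slow-fibre score was a covariate. It was -0.15 with array weights, and -0.58, -0.17 and -0.10 without CON-pre replicate 1, 3 and 4. The 8 slow sarcomere transcripts were likewise all lower in HFD averaged over exercise states, with a median log2 fold change of -0.44 and 0 called. Sln stood at 6.99, 2.78, 2.13 and 5.05 FPKM in CON-post and at 5.19, 2.06, 1.82 and 1.11 FPKM in HFD-post. Its log2 fold change there was -0.68 (-1.58 to 0.22, adjusted p 0.913) and -0.46 averaged over exercise states (-1.10 to 0.17, adjusted p 0.645). The CON-post and HFD-post difference was -1.04 without HFD-post replicate 1, -0.43 without HFD-post replicate 4, -0.42 without CON-post replicate 1 and -0.29 with an adipocyte score as a covariate. The averaged one was -0.17 with the slow-fibre score and -0.27 with the adipocyte score as a covariate. Of the 8 transcripts in the adipocyte score, 1 was called higher and 1 lower in HFD averaged over exercise states. Log2 fold changes of the 8 ran from -1.77 to 2.54, and the part of adipocytes in the Sln estimate was not tested. The Sln groups overlapped, and the intervals allow anything from a fall of over 1 to a slight rise on the log2 scale. By contrast, the averaged diet estimates of Ryr1 (-0.03), Cacna1s (0.04), Atp2a1 (-0.04) and Casq1 (-0.05) had intervals within -0.17 and 0.14.

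The variable members were next compared with a slow-fibre score, the mean of the centred log2 values of 8 slow sarcomere transcripts that include none of the 10 members. The score averaged 0.18 ± 0.76 in CON-pre, -0.35 ± 0.59 in HFD-pre, 0.25 ± 0.82 in CON-post and -0.08 ± 0.81 in HFD-post (SD, n = 4), so mice of every group covered much of its range. Correlations were computed over the 16 libraries after each group's mean was removed, with a two-sided permutation test within groups and adjustment over the 10 members. They describe how transcripts varied between mice of the same group and not an effect of diet or exercise. Values of 1 library share their depth and scaling.

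Atp2a2 followed the score almost completely, with a Pearson r of 0.97 (permutation p = 1e-05, the smallest that 100000 permutations can give, adjusted p 0.0001) and a Spearman rho of 0.96 (adjusted permutation p 0.0001). Without the 2 libraries farthest from the median score, r was 0.98. Casq2 gave r = 0.77 (permutation p = 0.00356, adjusted p 0.0169) and rho = 0.81 (permutation p = 0.0019, adjusted p 0.00633), and 0.72 without those libraries. Sln gave r = 0.75 (permutation p = 0.00507, adjusted p 0.0169) and rho = 0.79 (permutation p = 0.00151, adjusted p 0.00633), and 0.80 without them. The slow-fibre pump thus varied with the slow sarcomere from mouse to mouse more tightly than the slow calsequestrin or sarcolipin did. That difference between the coefficients was not tested.

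Casq1 ran the other way, with r = -0.67 (permutation p = 0.0137, adjusted p 0.0342) and rho = -0.67 (permutation p = 0.0152, adjusted p 0.0379), and -0.69 without the 2 farthest libraries. This relation was lost under upper-quartile scaling (r = -0.41, adjusted permutation p 0.387). It also passed the threshold no longer when CON-pre replicate 1 or 4, CON-post replicate 1 or 2 or HFD-post replicate 1 or 4 was left out, with r from -0.67 to -0.57 and adjusted permutation p from 0.0599 to 0.142. The relation of Casq2 was lost without CON-pre replicate 1 (adjusted permutation p 0.0582), CON-post replicate 2 (0.0707) or HFD-post replicate 1 (0.0655), and that of Sln without CON-pre replicate 1 (0.0682) or HFD-post replicate 1 (0.0668), with r at 0.67 or above in each.

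The remaining 6 members had no relation to the score that passed the test. The coefficients were -0.33 for Trdn, -0.30 for Pvalb, -0.12 for Ryr1, -0.08 for Atp2a1, -0.04 for Cacna1s and 0.04 for Pln, with adjusted permutation p of at least 0.514. Phospholamban, the inhibitor that in heart is paired with SERCA2, showed no detectable relation to the slow sarcomere here, at levels near 1 FPKM. The ratio of Pln to Atp2a2 ranged from 1.18% to 4.03% over all libraries.

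**Figure D4:**
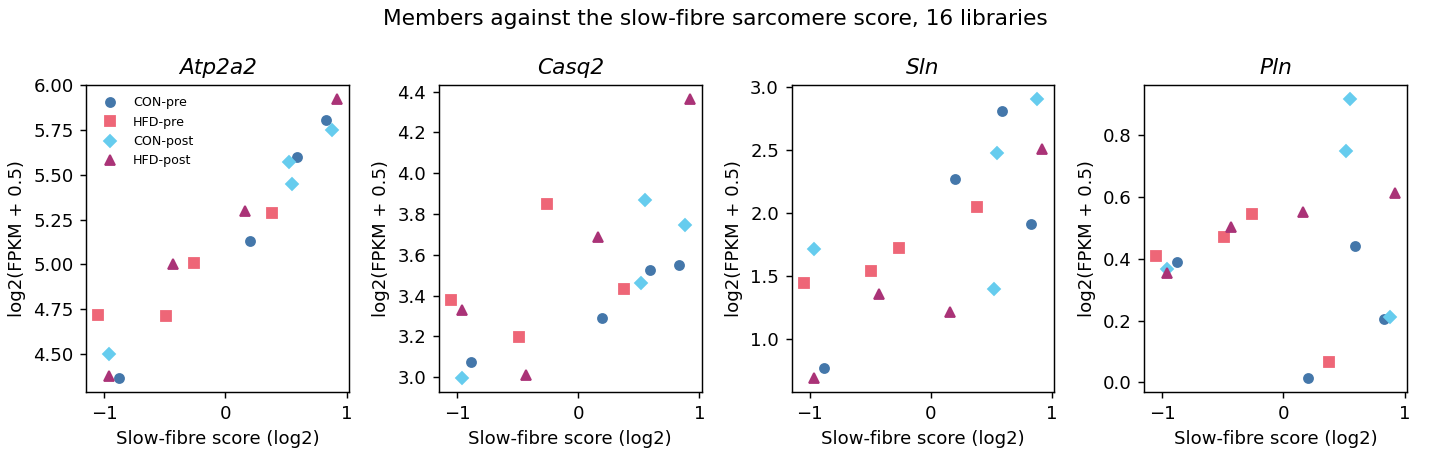
Log2(FPKM + 0.5) of Atp2a2, Casq2, Sln and Pln against the slow-fibre score of each library, 16 libraries in 4 groups (symbols). Within groups r is 0.97 for Atp2a2, 0.77 for Casq2 and 0.75 for Sln, and 0.04 for Pln, whose points show no trend.

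Isoform balance within a library was tested through 4 ratios, each in 6 contrasts. The ratio of slow to fast pump (Atp2a2 to Atp2a1) ranged from 0.276% to 0.881%, and both extremes belonged to HFD-post. Sln relative to the summed pumps ranged from 0.015% to 0.096%. None of the 24 tests passed an adjusted exact permutation p of 0.05, and 4 libraries against 4 cannot give an unadjusted p below 0.0286. The lowest adjusted p was 0.904.

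The genes most like 8 of the members (all but Ryr1 and Cacna1s) were listed by Pearson r on the log2 scale over the 16 libraries. Group means were not removed, so differences between groups enter these coefficients, which are a description without a test. For Atp2a2 the closest genes were the slow sarcomere transcripts Myl3 (0.97), Tnnc1 (0.96) and Myh7 (0.96). For Sln they included Myl2 and Tnnt1 (both 0.74) and Atp2a2 (0.73). Casq2 was closest to Nnt (0.89), the mitochondrial transhydrogenase, and to Myh2 (0.87), the type IIa myosin. Atp2a1 was closest to Oat (0.85) and to its fellow member Ryr1 (0.82), and Pvalb to Slc37a4 and to the muscle enolase Eno3 (both 0.87). For Pln the closest was Nrbp1 (0.84). Casq1, examined after its values were seen, was closest to the glycolytic enzyme Pgam2 (0.93) and to Fsd2 (0.91), and Trdn, likewise, to Gigyf2 (0.93).

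The wider calcium-handling pathway was covered by 64 further gene symbols, of which 57 were in the table and 51 were tested. The list held both an older and a newer symbol for some pump peptides, so a symbol missing from the table need not be a missing gene. After exercise, averaged over diets, 0 rose and 2 fell, which is 3.92% of the 51 beside the 3.86% of all genes called in this contrast. The 2 were Sypl2 (mitsugumin 29, a membrane protein of the triad junction) and Stac3 (an adaptor of the voltage sensor). The median log2 fold change of the 51 was -0.04, beside 0.01 for all genes. In each of the other 6 contrasts, 0 of the 51 were called. At an unadjusted p under 0.05, 2 were higher and 10 lower for exercise averaged over diets (23.5% of the 51, beside 18.5% of all genes), and 1 was higher and 6 lower for diet averaged over exercise states (13.7%, beside 10.4%). The counts were 0 higher and 8 lower in HFD-pre against CON-pre (15.7%, beside 8.25%), and 1 and 1 in HFD-post against CON-post (3.92%, beside 6.29%). They were 0 and 6 in CON-post against CON-pre (11.8%, beside 11.1%), 5 and 5 in HFD-post against HFD-pre (19.6%, beside 11.7%), and 2 and 0 for the interaction (3.92%, beside 3.16%).

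Sypl2 stood at 106 ± 7.01 FPKM in CON-pre and 105 ± 9.07 in HFD-pre, and at 88.8 ± 7.2 in CON-post and 83.1 ± 5.71 in HFD-post (SD, n = 4). Its averaged log2 fold change was -0.29 (SE 0.06, adjusted p 0.0072 by limma), close to that of Casq1. Unlike Casq1, its 8 pre-exercise and 8 post-exercise libraries overlapped, between 95 and 99.5 FPKM. Stac3 fell from 105 ± 4.46 and 107 ± 1.98 FPKM in CON-pre and HFD-pre to 95.2 ± 4.98 and 94.8 ± 3.95 FPKM in CON-post and HFD-post (SD, n = 4), with a log2 fold change of -0.16 (SE 0.04, adjusted p 0.0331 by limma). The Stac3 call was lost when any of 8 libraries was left out (replicates 1 and 2 of CON-pre and of HFD-pre, and replicates 1 and 4 of CON-post and of HFD-post), where the adjusted p lay between 0.054 and 0.0806. It was also lost with a replicate block (0.0574), without a mean-variance trend (0.0693) and with an adipocyte score as a covariate (0.0545). The log2 fold change of Stac3 was -0.16 in each of these settings, and from -0.17 to -0.15 over the fits without 1 library.

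The pathway was also read by the role of its genes. Of 16 triad and couplon genes, 9 were lower and 7 higher after exercise, with a median of -0.02, and both calls fell in this list. Of 12 luminal and cytosolic calcium-binding genes, 11 were lower and 1 higher, with a median of -0.11 (0.01 for all genes) and 0 called. That shared direction was not tested. The 11 further channels, pumps and pump peptides had a median of -0.03 and the 12 genes of store-operated entry and mitochondrial uptake one of -0.01, with 0 called in either. Among the genes with the lowest unadjusted p, Cav3 (caveolin 3, of the fibre membrane) had an averaged diet log2 fold change of -0.20 (SE 0.05, adjusted p 0.0982 by limma), and Atp2b4, a plasma membrane calcium pump, one of 0.25 in HFD-post against CON-post (SE 0.11, adjusted p 0.738). Cacna2d1, an accessory subunit of the voltage sensor, had an interaction of 0.25 (SE 0.11, adjusted p 1). The other ryanodine receptors were nearly absent, with Ryr2 at most at 0.0357 FPKM and Ryr3 at most at 0.103 FPKM.

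On GRCm38, RefSeq places Ryr1 at chr7:29003340-29125179 and Atp2a1 at chr7:126445858-126463103, Cacna1s at chr1:136052806-136119822 and Casq1 at chr1:172209894-172219895, and Casq2 at chr3:102086415-102146514. Atp2a2 lies at chr5:122453513-122502225, Sln at chr9:53850251-53853849 and Pvalb at chr15:78191112-78206400. Trdn (chr10:33083483-33476709) and Pln (chr10:53337686-53345999) share a chromosome. FPKM values are given per gene symbol, so no exon or isoform is resolved.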

How the data were processed

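RNA from quadriceps of 16 mice, 4 per group, was made into stranded mRNA libraries. TopHat was used for alignment and Cufflinks for quantification. The authors deposited FPKM, a unit corrected for length and for the size of each library, so no count model was used. The methods give 1 approximate read number for all samples, but the depth of each library is not in the table, and a relative depth was read from low values. The submitters' notes name mm9, but 692 of 692 loci compared from the supplementary tables overlapped GRCm38 genes and 114 overlapped mm9 genes, so positions are given on GRCm38. The table held 24487 entries; 27 named as dates were left out (0.0771% of FPKM) and 260 repeated symbols were summed, none of them a member. Every column of sample values was used (0 left out).

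Values were tested with limma 3.58.1 in R 4.3.3 after a log2(FPKM + 0.5) transformation. The 4 group means were fitted together, the variance prior followed the mean level, and 7 contrasts were drawn. The 11256 genes averaging 0.5 FPKM or more were tested. Calls were made at an adjusted p (Benjamini-Hochberg, all tested genes) under 0.05. Ratios and correlations were tested by two-sided permutation over libraries (Python 3.11.15, numpy 2.4.6, scipy 1.17.1). Per contrast, the members named are that with the largest estimate and those with an unadjusted p under 0.05. For pathway genes, they are called genes and those with the lowest p; the values of 1 gene are not reported. Members, gene lists and tests were chosen with earlier results of these data known. The code was tested on simulated data. Each library is 1 mouse. Same-numbered libraries of different groups deviated from their group means with correlations of -0.22 to 0.213, so the numbers were not taken as pairs. The authors' own comparisons and metabolomics were not used here.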

Additional observations from a re-analysis of the deposited data

Results flagged for a closer look

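Of the 40 sets of 4 values (10 members in 4 groups), 1 held a library that stood apart by Dixon's criterion: Pvalb in CON-pre replicate 2, at 5562 FPKM beside 6757 to 6919 FPKM in the other 3 libraries. Its gap to the nearest value was 0.88 of the range of the group, above the critical value for 4 samples. Chance flags about 1 in 20 such sets.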

How the results depend on the processing

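There were 19 alternatives and 16 settings without 1 library each, not all of which apply to each result: member counts met 31 or 32 settings, single genes 29 or 30, correlations 19 and ratios 11 or 19. Under those run for it, 25 of 52 results kept their direction and their side of the threshold, 13 of them ratios. Exercise averaged over diets called 1 member, and 0 without the filter on low values (Casq1, adjusted p 0.0759 by limma); its adjusted p over the alternatives was 0.00216 to 0.0759. CON-post against CON-pre called 0 members but 1 (Casq1) at an adjusted p under 0.1, at an unadjusted p under 0.05, after quantile normalization, with array weights and with the slow-fibre score as a covariate, and 0 to 1 without 1 library. At an unadjusted p under 0.05, 1 member was called in HFD-pre against CON-pre, 1 in HFD-post against HFD-pre and 1 in diet averaged over exercise states. Atp2a2 in HFD-pre turned from -0.29 to 0.09 with the slow-fibre covariate. For the correlation with the slow-fibre score, upper-quartile scaling gave 0.19 for Ryr1, 0.23 for Cacna1s, 0.21 for Atp2a1 and -0.41 for Casq1, and Myh7 alone in place of the score gave 0.04 for Cacna1s and -0.01 for Pln. Without 1 library at a time, the coefficient ranged from -0.47 to 0.14 for Ryr1, -0.32 to 0.24 for Cacna1s, -0.73 to -0.57 for Casq1, 0.70 to 0.82 for Casq2, -0.38 to 0.08 for Atp2a1, 0.67 to 0.86 for Sln and -0.14 to 0.23 for Pln. None of the 24 ratio differences passed an adjusted p of 0.05 in a setting that allowed the test, and 11 changed sign in at least 1 setting. Pln to Atp2a2 in HFD-post against HFD-pre went from 0.00 to -0.09 with 0.5 FPKM added and to -0.11 from group means. Without 1 library at a time it ranged from -0.30 to 0.21, and in HFD-post against CON-post from -0.23 to 0.31. Atp2a2 to Atp2a1 ranged from -0.26 to 0.33 in CON-post against CON-pre, -0.18 to 0.38 in HFD-post against HFD-pre, -0.45 to 0.11 in HFD-post against CON-post and -0.07 to 0.22 for exercise averaged over diets. Casq2 to Casq1 ranged from -0.22 to 0.32 in HFD-post against CON-post and -0.03 to 0.24 for diet averaged over exercise states. Sln to the pumps ranged from -0.66 to 0.18 in HFD-pre against CON-pre, -0.30 to 0.54 in CON-post against CON-pre and -0.37 to 0.05 for exercise averaged over diets. The causes of these shifts were not tested. Of the genes called for exercise averaged over diets, 76.3% were higher, and 48.8% under upper-quartile, 63.1% under median-of-ratios and 54.2% under quantile scaling, while Casq1 stayed called and lower in each. With a replicate block, Casq1 gave -0.32 (adjusted p 0.0136 by limma) and the call of Stac3 was lost (0.0574); 6 of 16 libraries correlated best with their own number. The call of Stac3 was also lost without a mean-variance trend (0.0693) and with an adipocyte score as a covariate (0.0545). Its log2 fold change was -0.16 in each, as with the replicate block. The depth of each library is not known from FPKM, which limits the reading of low values such as those of Sln and Pln.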
